A study of Mus musculus with 8 samples.

Results

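The genes described here encode the enzymes that make, oxidise and acetylate the polyamines putrescine, spermidine and spermine, together with the antizyme system that controls the first enzyme. They were chosen by name, as a set of 10 genes: Smox, Odc1, Amd1, Amd2, Srm, Sms, Sat1, Paox, Oaz1 and Azin1. Every probe whose platform annotation carries 1 of these names was taken, which gave 14 probes for 8 of the 10 genes, out of 25697 probes for 16593 named genes on the array. Smox had 5 probes, Srm had 3, and Odc1, Amd2, Sms, Sat1, Oaz1 and Azin1 had 1 each. Paox and Amd1 have no probe of their own in the annotation and were not analysed here. Slc26a1, a sulfate transporter gene that carries Sat1 among its synonyms, is a different gene and was left out. Its only probe lay at the floor of the scale, at 8.21 ± 0.02 in the muscles given the spermine oxidase plasmid and 8.21 ± 0.03 in control muscles (SD, n = 4 each).

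The samples were tibialis anterior muscles, from the front of the lower hindlimb, of male C57BL/6 mice aged 8 weeks. Of these, 4 had been transfected with a plasmid encoding spermine oxidase and 4 with a control plasmid, and all 8 were taken 7 days later. C57BL/6 is a common inbred laboratory strain, no mutation or other agent is labelled for either group, and the promoter of the plasmid and the share of fibres it reached are not given in the labels. The labels speak of muscles of both sides but do not say which muscles came from 1 mouse, and the p-values therefore describe only how these muscles vary, some of which may be technical.

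Cells make putrescine from ornithine with ornithine decarboxylase, and then add aminopropyl groups to it to give spermidine and spermine. The aminopropyl groups come from S-adenosylmethionine after its decarboxylation by the enzyme that Amd1 encodes. The way back runs either through spermine oxidase, which splits spermine directly and releases hydrogen peroxide and an aldehyde, or through acetylation by the Sat1 enzyme followed by the peroxisomal oxidase Paox. The pathway is held in balance largely through translation and protein turnover: antizyme binds ornithine decarboxylase and sends it to the proteasome, and antizyme inhibitor sequesters antizyme. The arrays measured mRNA and none of those steps.

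The probe named Amd2 needs a word on identity, because it is 1 of the members the results turn on. It was designed to the transcript NM_007444, which RefSeq now assigns to Amd2 and which carries Amd1 among its synonyms. In the assembly GRCm38.p6 both genes lie on the minus strand of chromosome 10. Amd1 spans positions 40287458 to 40302188, or 14731 bases, and Amd2 spans 35708691 to 35711891, or 3201 bases. The RefSeq windows around their annotated starts share an identical run of at least 48 bases that begins at or next to the annotated start of transcription. The run reaches the end of the Amd1 window, so how far the identity extends was not read. The first bases of this run are shown in capitals below, after 10 bases in lower case that precede it in each gene, to show where the 2 genes become alike.
Amd1, chr10:40302167-40302196, minus strand: cagaaccctcGCTTACACAGTATGGCCGGC
Amd2, chr10:35711872-35711901, minus strand: ggaaatatcgGCTTACACAGTATGGCCGGC
The capitals are the same in both genes. The probe's own sequence was not used here, so whether its signal came from Amd1 mRNA, Amd2 mRNA or both was not tested, and it is called the Amd2 probe below.

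All values are log2 signals as the authors deposited them. They ran from 8.10 to 15.29, with a median between 8.329 and 8.332 on every array, and arrays correlated with each other at 0.975 to 0.997 across probes. The scale has a floor near 8.10, so differences of dim probes are compressed, and precision is limited by having 4 arrays a group. Differences are the mean of the spermine oxidase muscles minus the mean of the control muscles, with standard errors from limma, a linear model with a shared estimate of the spread. P-values adjusted by Benjamini-Hochberg over all 16593 genes were read against a threshold of 0.05. Of the skeletal muscle fibre markers, such as Acta1, Ckm and Mylpf, all 8 were measured, and their mean signal lay between 14.61 and 14.71 in spermine oxidase muscles and between 14.53 and 14.66 in control muscles.

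Of the 8 measured genes, Smox and Amd2 were higher in all 4 spermine oxidase muscles than in any control muscle, and the other 6 overlapped between the groups. Sat1, the acetylating enzyme, was lower in spermine oxidase muscles, with overlap. Odc1, Srm, Sms, Oaz1 and Azin1 differed by less than 0.1 log2 units. None of the 8 passed the adjusted threshold with limma fitted without a replicate block, where 0 of all 16593 genes passed (0.0%). An unadjusted p under 0.05 was reached by 2 of the 8, Smox and Amd2, against 11.0% of all genes, and the groups did not overlap for 6.18% of all genes, or 3.66% counting only genes that were higher. Smox is the gene carried by the plasmid, so a difference in it was built into the design. Of the 7 other genes, only Amd2 counted on either measure. Over the 8 genes 4 differences were above 0 and 4 below, with a median of -0.006, beside a median of -0.001 over all genes. The median size of the difference was 0.077 for the 8 genes, Smox included, and 0.028 for all genes. These sizes compare genes of unlike brightness. The median signal of the arrays, 8.33, lies near the floor, where differences are compressed, while Smox, Odc1, Sat1 and Oaz1 were bright.

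Smox, the gene carried by the plasmid, gave a check of the labels in each muscle. Its brightest probe, ILMN_1247267, read 12.58, 11.56, 12.02 and 11.60 in spermine oxidase muscles 1 to 4, against 11.15, 10.92, 10.90 and 10.17 in control muscles 1 to 4. Every spermine oxidase muscle was above every control muscle, and control muscle 4 stood lowest. The difference was 1.16 ± 0.28 (SE, adjusted p = 0.233 with limma). Without control muscle 4 and spermine oxidase muscle 1 together, the lowest and the highest of the 8, it was 0.74.

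The 5 Smox probes fell into a pair and a trio that ranked the spermine oxidase muscles differently. The second brightest probe, ILMN_2597030, read 12.26, 11.22, 11.84 and 11.25 in spermine oxidase muscles 1 to 4 and 10.83, 10.64, 10.61 and 9.90 in control muscles 1 to 4. It therefore followed the brightest probe, with spermine oxidase muscle 1 highest and muscle 2 lowest. The third probe, ILMN_2608052, read 11.87, 13.29, 12.40 and 11.53 in spermine oxidase muscles 1 to 4, and 9.07, 8.85, 8.90 and 8.52 in control muscles 1 to 4. On it, spermine oxidase muscle 2 was highest and muscle 4 lowest, and the control muscles lay close to the floor.

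The same order was found on the other 2 probes of the trio. ILMN_1256359 read 11.56, 13.17, 12.04 and 11.26 in spermine oxidase muscles 1 to 4, against control values between 8.48 and 8.86. ILMN_2766469 read 11.63, 12.99, 12.12 and 11.19 in spermine oxidase muscles 1 to 4, against control values between 8.46 and 8.81. Spermine oxidase muscle 2 was thus the highest muscle on 3 probes and the lowest of its group on 2 probes. Among control muscles, muscle 1 was highest and muscle 4 lowest on all 5 probes. The trio differed by 3.30 to 3.44 log2 units between the groups and the pair by 1.15 and 1.16. The trio's standard errors were 0.35 to 0.38, and none of its probes passed (adjusted p = 0.139 for each with limma over all probes). With each array's lowest value subtracted on the linear scale and 16 added, the trio differed by 4.64 to 4.82 and the pair by 1.30 and 1.32. All 5 probes are annotated to the transcript NM_145533, the gene lies on chromosome 2 at 131491858 to 131525183 (GRCm38.p6), and which part of the transcript each probe reads was not analysed here. The groups did not overlap on any of the 5 probes, as for 5.85% of all probes, and a two-sided exact permutation test on all 70 ways to split the muscles 4 against 4 gave p = 0.0286 for each, the smallest it can give.

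**Figure D1:**
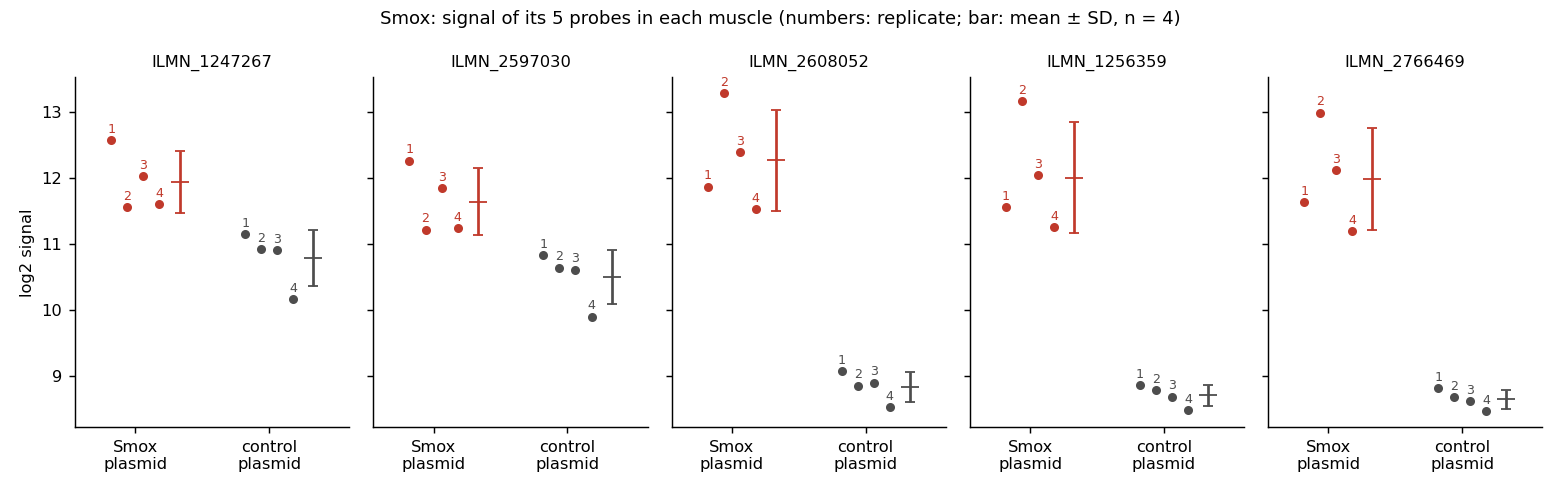
Log2 signal (y axis) of the 5 Smox probes, 1 panel each, in the 4 muscles given the Smox plasmid (red, left) and the 4 control muscles (grey, right). Points are muscles with their replicate number, and bars are means ± SD. Smox-plasmid muscle 1 is highest on the 2 probes at the left and muscle 2 on the 3 probes at the right, whose control values lie between 8.46 and 9.07.

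Among the enzymes of synthesis, Odc1 encodes ornithine decarboxylase, which makes putrescine. Its signal was 12.11, 12.08, 12.03 and 11.86 in spermine oxidase muscles 1 to 4, against 12.02, 11.90, 12.07 and 11.72 in control muscles 1 to 4. The groups overlapped, and muscle 4 was the lowest in each. The difference was 0.09 ± 0.09, with a 95% interval from -0.11 to 0.29 (adjusted p = 0.766 with limma, exact permutation p = 0.371).

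The Amd2 probe reports S-adenosylmethionine decarboxylase, the enzyme that supplies the aminopropyl donor. It read 9.79, 9.33, 9.67 and 9.25 in spermine oxidase muscles 1 to 4. In control muscles 1 to 4 it read 8.86, 8.72, 8.91 and 8.45. The lowest spermine oxidase value lay above the highest control value, and in each group muscle 4 was lowest. The difference was 0.78 ± 0.15, a 1.71-fold higher signal, with a 95% interval from 0.43 to 1.12.

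The Amd2 difference did not pass over all genes in the fit without a replicate block (adjusted p = 0.179 with limma). With the block it passed (adjusted p = 0.0172 with limma), as did 1.6% of all genes, but no label pairs the muscles. For Amd2 the exact permutation p = 0.0286 is the smallest that 4 against 4 muscles allow. By unadjusted p without the block Amd2 ranked 82 of 16593 genes, and 0.181% of genes had a larger difference in size. Its control mean stood 0.61 log2 units above the floor of the arrays. With the floor subtracted in the same way, the difference was 1.56, or 2.95-fold, and the adjusted p = 0.163 with limma. Leaving out each muscle in turn gave differences between 0.68 and 0.86, and leaving out control muscle 4 and spermine oxidase muscle 1 together gave 0.59.

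Spermidine synthase, the product of Srm, adds the first aminopropyl group and was measured by 3 probes. The brightest, ILMN_2809611, read 9.24, 9.21, 9.25 and 9.29 in spermine oxidase muscles 1 to 4, against 9.18, 9.43, 9.27 and 9.36 in control muscles 1 to 4. The spermine oxidase muscles lay inside the range of the control muscles. The difference was -0.06 ± 0.05, with a 95% interval from -0.18 to 0.06 (adjusted p = 0.734 with limma). The probes did not share a sign: ILMN_1225880 differed by 0.01 ± 0.05 and ILMN_2630641 by -0.08 ± 0.05, and both overlapped between the groups.

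Spermine synthase, the product of Sms, adds the second aminopropyl group, giving the substrate of spermine oxidase. Its only probe ranged from 8.19 to 8.23 in spermine oxidase muscles and from 8.21 to 8.23 in control muscles, below the median of all probes on the arrays. Its signal stood 0.10 log2 units above the lowest value of the control arrays, so a change in Sms mRNA may not have been detectable with this probe. The difference was -0.01 ± 0.02 (adjusted p = 0.857 with limma).

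Sat1 encodes spermidine/spermine N1-acetyltransferase, the enzyme that starts the acetylation route of polyamine breakdown and is known to be induced by high polyamines. It read 11.78, 12.38, 12.21 and 12.40 in spermine oxidase muscles 1 to 4. In control muscles 1 to 4 it read 12.34, 12.48, 12.59 and 13.01. In spermine oxidase muscles, muscles 2 and 4 lay above the lowest control value, so the groups overlapped. The highest control value was muscle 4 and the lowest value of all 8 was spermine oxidase muscle 1.

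The Sat1 difference was -0.41 ± 0.18, with a 95% interval from -0.83 to 0.002, and did not pass (unadjusted p = 0.051 and adjusted p = 0.454 with limma, exact permutation p = 0.0857). A larger difference in size was found for 1.25% of genes, a share taken over all genes, including those near the floor, where differences are compressed. Without control muscle 4 and spermine oxidase muscle 1 together it was -0.14 (adjusted p = 0.795 with limma). These 2 muscles held the highest control and the lowest spermine oxidase value. Leaving them out therefore had to shrink the difference, here by most of its size. Leaving out either of these muscles alone gave -0.28.

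The antizyme system showed small differences. Oaz1, ornithine decarboxylase antizyme, read 12.55, 12.38, 12.40 and 12.47 in spermine oxidase muscles 1 to 4, against 12.57, 12.49, 12.38 and 12.45 in control muscles 1 to 4. The ranges nearly coincided, with muscle 1 highest in each group, and the difference was -0.03 ± 0.05 with a 95% interval from -0.14 to 0.09 (adjusted p = 0.897 with limma). Azin1, the antizyme inhibitor, ranged from 8.43 to 8.51 in spermine oxidase muscles and from 8.44 to 8.50 in control muscles. Its difference was 0.0001 ± 0.03 (adjusted p = 0.999 with limma), and its control mean stood 0.35 log2 units above the floor.

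**Figure D2:**
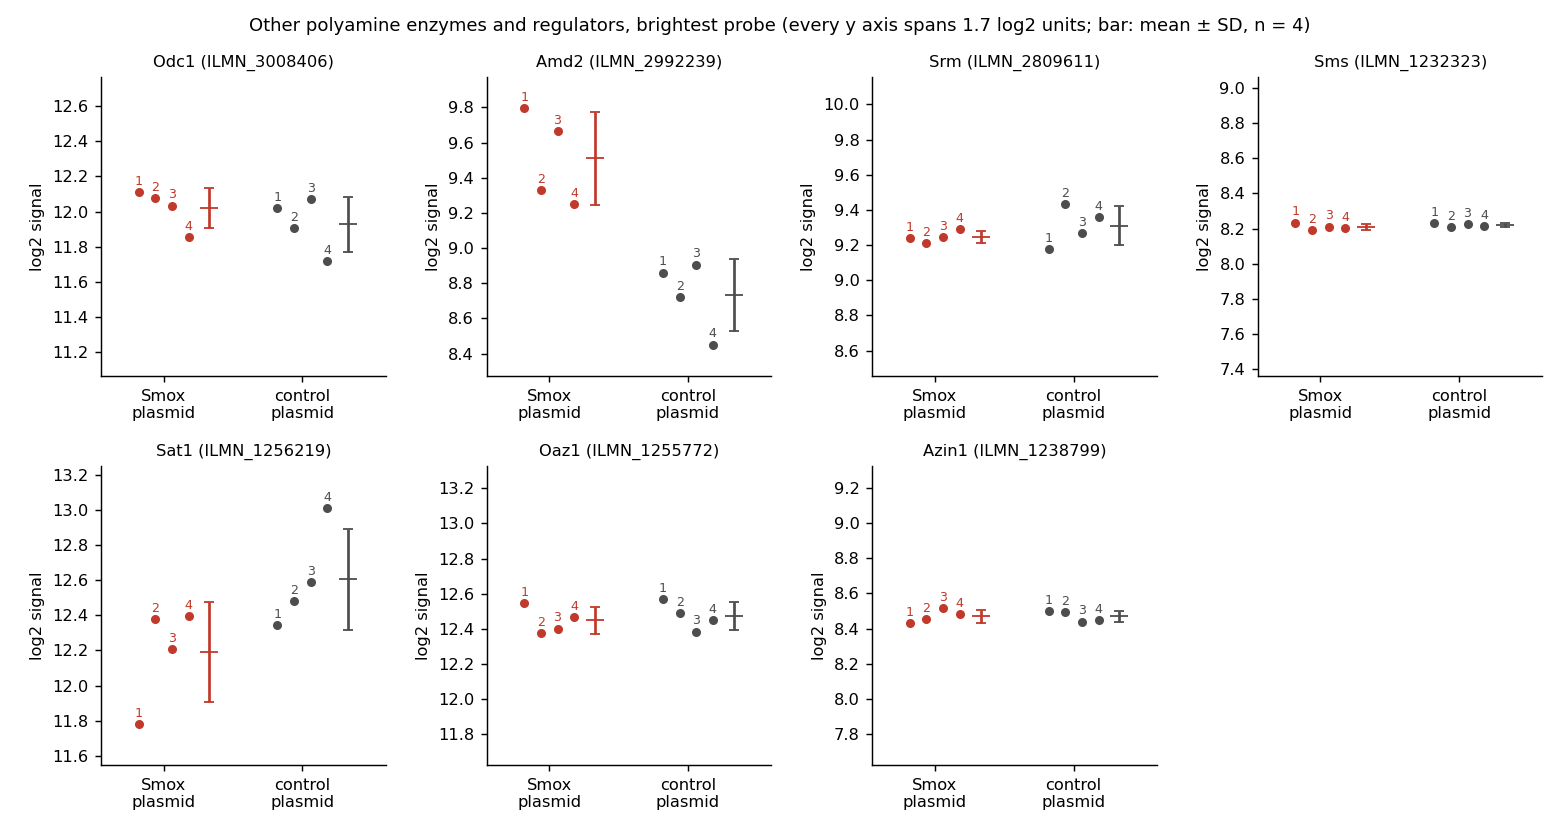
Log2 signal (y axis, each spanning the same 1.7 log2 units) of the brightest probe of the other 7 genes in the muscles given the Smox plasmid (red, left) and control muscles (grey, right). Points are muscles with their replicate number, and bars are means ± SD, n = 4. Only the Amd2 panel shows groups without overlap, and Sat1 has its lowest value in Smox-plasmid muscle 1 and its highest in control muscle 4.

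Both groups are numbered 1 to 4, and the members were also compared number by number, although no label says that equal numbers mark 1 mouse. The Amd2 probe was higher in the spermine oxidase muscle for all 4 numbers, by 0.93, 0.61, 0.76 and 0.80 for numbers 1 to 4. Smox on its brightest probe was higher by 1.43, 0.64, 1.12 and 1.44 for numbers 1 to 4. Across all genes 11.3% were higher for all 4 numbers. Sat1 was lower for all 4 numbers, by -0.56, -0.10, -0.38 and -0.61 for numbers 1 to 4, as were 11.1% of all genes. For Smox on this probe, Amd2 and Sat1 alike, number 2 showed the smallest of the 4 differences, while on the trio of Smox probes number 2 showed the largest, at 4.31 to 4.44. Odc1 was higher for 3 numbers, and Srm and Sms were lower for 3 of them. Oaz1 and Azin1 went each way for 2 numbers. With the number as a block in limma, 2 of the 8 genes, Smox and Amd2, passed the adjusted threshold, as did 1.6% of all genes. Deviations from the group means correlated at 0.60, 0.67 and 0.60 for numbers 1, 3 and 4, and at -0.14 for number 2. Unlike numbers correlated at 0.37 at most. Numbers 1, 3 and 4 thus varied together and number 2 did not, and no label pairs the muscles. The fit without the block is the one reported.

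**Figure D3:**
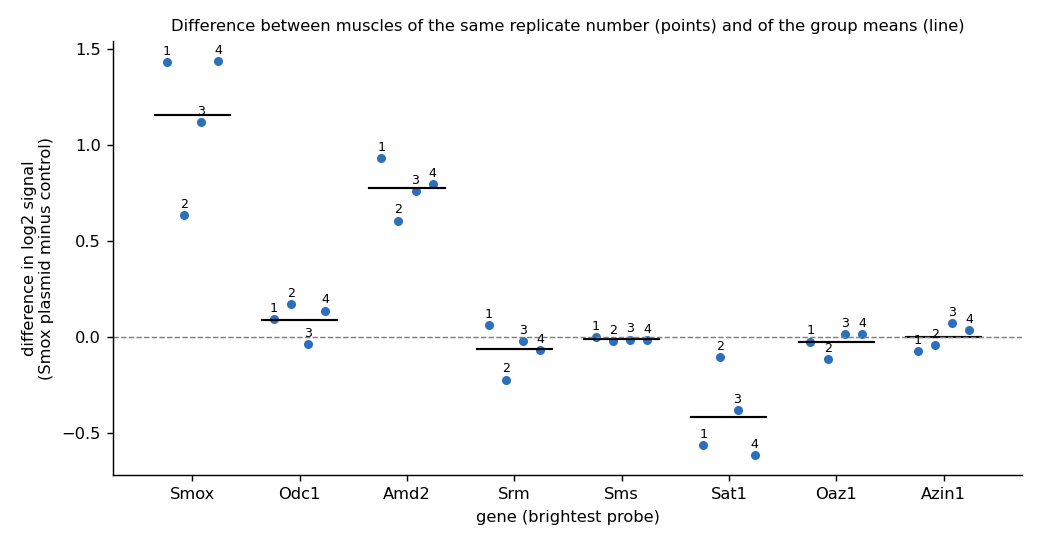
Difference in log2 signal, Smox plasmid minus control (y axis), for the brightest probe of each of the 8 genes (x axis). Points are the 4 differences between muscles of the same number, labelled by it, and lines are the differences of the group means. Smox and Amd2 lie above 0 for all 4 numbers, with Amd2 between 0.61 and 0.93, and Sat1 lies below 0 for all 4.

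Markers of other cells and of fibre state were read in the same muscles, and none passed the adjusted threshold with limma. In bulk muscle, fewer cells of a type and less RNA per cell cannot be told apart. Of the immature and regenerating fibre markers, 7 of 8 were measured, and all 7 were lower in spermine oxidase muscles. Their mean signal lay between 11.01 and 11.94 in spermine oxidase muscles and between 11.97 and 12.42 in control muscles. Of 7 fibroblast markers 6 were lower, with a mean signal between 11.01 and 11.72 in spermine oxidase muscles and between 11.33 and 11.95 in control muscles. Muscle 4, which had the highest Sat1 and the lowest Amd2 signal in each group, was also the highest of each group in both of these marker lists. It was the highest of each group in the macrophage list too, whose markers went both ways. The order of the other muscles in these lists was not that of Sat1.

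The mean signals of the endothelial, adipocyte and tendon lists were higher in every spermine oxidase muscle than in any control muscle. Macrophage, erythroid and lymphocyte markers went both ways. The mean signal of the 6 endothelial markers, of which Kdr was at the floor and the other 5 were higher, lay between 9.39 and 9.54 in spermine oxidase muscles and between 9.29 and 9.35 in control muscles. Of the 5 measured adipocyte markers, 3 (Plin1, Fabp4 and Cidec) lay below the median of the arrays, where no sign can be read, and Adipoq and Lep were higher. The list had a mean of 8.56 to 8.63 in spermine oxidase muscles and 8.32 to 8.50 in control muscles. Of 6 tendon markers 5 were higher, Tnmd among them at the floor, with a mean of 9.26 to 9.55 in spermine oxidase muscles and 8.82 to 9.13 in control muscles. Macrophage markers were higher for 3 and lower for 3 of the 6 measured, with a mean of 10.05 to 10.30 in spermine oxidase muscles and 10.12 to 10.53 in control muscles. The means of the erythroid markers (3 of 5 measured; 9.79 to 10.15 in spermine oxidase muscles and 9.55 to 9.87 in control muscles) and of the lymphocyte markers (5 of 6 measured; 8.51 to 8.86 in spermine oxidase muscles and 8.62 to 8.99 in control muscles) overlapped between the groups. The part of these markers in the Amd2 and Sat1 differences was not tested.

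The other genes around the pathway were taken from 5 lists, and none of their genes passed the adjusted threshold with limma. Of their 49 measured genes, 21 had a mean below the median of the arrays, near the floor, where a sign says little. The groups did not overlap for 3 of the 49, or 6.12%, against 6.18% of all genes. In each list the 2 brightest genes are given. Of 7 measured regulators and homologs of the enzymes, 6 were lower and 1 higher, with a median difference of -0.03 and overlap for all 7. Oaz2, a second antizyme, differed by -0.002 ± 0.08, and Aoc3, an amine oxidase of vessel walls and fat, by -0.11 ± 0.18. Of 9 measured genes of polyamine transport, 6 were higher and 3 lower, with a median of 0.01 and overlap for all 9. Gpc1, the heparan sulfate proteoglycan glypican 1, differed by 0.04 ± 0.08, and Cav1, the caveolar coat protein caveolin 1, by 0.11 ± 0.11. Hypusination, in which spermidine is used to modify the translation factor eIF5A, was represented by 2 of 4 genes: Eif5a differed by -0.05 ± 0.06 and Eif5a2, at the floor, by -0.01 ± 0.02.

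Arginine and ornithine supply, upstream of Odc1, was measured by 16 genes, of which 9 were higher and 7 lower, with a median of 0.01. Oat, ornithine aminotransferase, read 12.71 ± 0.19 in spermine oxidase muscles and 12.50 ± 0.11 in control muscles (SD, n = 4 each), a difference of 0.21 ± 0.10 (adjusted p = 0.502 with limma). The groups did not overlap for 1 of the 16, Gamt, near the share of 6.18% over all genes. It encodes guanidinoacetate methyltransferase, which completes creatine synthesis with a methyl group from S-adenosylmethionine. Its signal was 10.93, 11.23, 11.05 and 11.43 in spermine oxidase muscles 1 to 4, against 11.79, 11.89, 11.73 and 12.04 in control muscles 1 to 4. The difference was -0.70 ± 0.11 (adjusted p = 0.179 with limma).

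The methionine cycle supplies S-adenosylmethionine, and methylthioadenosine salvage recycles the by-product of spermidine and spermine synthesis. Of 15 measured genes of this list, 5 of them below the median of the arrays, 13 were higher and 2 lower in spermine oxidase muscles, with a median difference of 0.05, beside 49.2% higher and a median of -0.001 over all genes. Mat2b, a regulatory subunit of methionine adenosyltransferase, differed by 0.14 ± 0.09 (adjusted p = 0.635 with limma). Adi1, the acireductone dioxygenase of methylthioadenosine salvage, read 10.59, 10.24, 10.52 and 10.32 in spermine oxidase muscles 1 to 4, against 10.06, 10.10, 10.24 and 9.90 in control muscles 1 to 4. Spermine oxidase muscle 2 and control muscle 3 nearly coincided, and the difference was 0.34 ± 0.10 (adjusted p = 0.273 with limma).

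**Figure D4:**
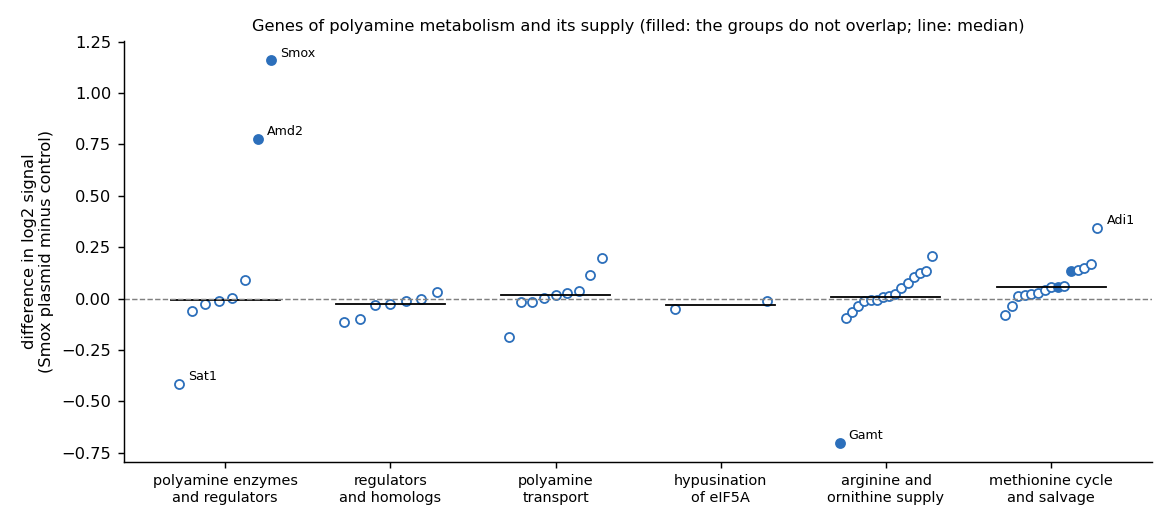
Difference in log2 signal, Smox plasmid minus control (y axis), of each measured gene in the polyamine enzymes and regulators and in 5 lists around them (x axis). Points are genes, filled where the groups of 4 muscles do not overlap, and lines are medians. Smox (1.16), Amd2 (0.78), Sat1 (-0.41), Gamt (-0.70) and Adi1 (0.34) lie outside the range in which the other genes fall.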

How the data were processed

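Muscle RNA was amplified, labelled with biotin and hybridised to Illumina bead arrays, per the labels' protocols. The log2 values were used as deposited by the authors; nearly equal quantiles on every array (at most 0.155 apart at any rank) show that they had been normalized between arrays. For the method, the background treatment and the software: not given in the sources used here. Gene names come from the platform annotation held by GEO, which gives 1 gene for 23978 of 25697 probes, several for 0 and leaves 1719 without a name here; 23962 matched RefSeq (GRCm38.p6) by Entrez identifier. Start-site sequences are from RefSeq.

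Each gene was represented by its brightest probe over 8 arrays. limma 3.58.1 in R 4.3.3 (lmFit, eBayes, two-sided) was fitted to all 16593 genes without a replicate block; other probes come from the same fit on all 25697 probes. Exact permutation tests used 14 probes and are unadjusted. In simulated data for spermine oxidase against control with 16593 genes, the fit recovered 73.3% of genes changed by 0.5 log2 units and 94.3% of those changed by 1. The changed genes were all brighter than the median gene, many were changed at once, and the simulated muscles varied independently. These shares therefore do not hold for dim genes and are not the power of the real comparison, where no gene passed. Named genes are every member and, from each of 5 pathway lists, any that pass and the 2 brightest; 9 marker lists were summarised. The members and lists were chosen with earlier results of these data known. Alternatives were the replicate block, quantile and median normalization, a filter on dim probes, other probe choices, a trend with robust prior, array weights (statmod 1.5.0), floor subtraction and leaving out muscles. Plots used matplotlib 3.10.9.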

Additional observations from a re-analysis of the deposited data

How the results depend on the processing

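Read on the brightest probe or the mean of a gene's probes, Smox, Amd2, Srm, Sms and Sat1 kept their sign under all alternatives run (Sms had no value without the dimmest 40% of probes). The Srm probe ILMN_1225880 alone differed by 0.01, opposite in sign to the brightest Srm probe. Smox ranged from 0.74 to 2.48 (2.48 as the mean of its 5 probes) and from 0.95 to 1.28 with a muscle left out; Sat1 ranged from -0.50 to -0.14. Odc1 turned to -0.00926 with spermine oxidase replicate 1 and control replicate 4 both left out. With 1 muscle left out, Oaz1 ranged from -0.0589 to 0.0064, turning without control replicate 1, and Azin1 from -0.0145 to 0.014, turning without spermine oxidase replicates 3 or 4 or control replicates 3 or 4; these differences are within the error. No gene passed limma's adjusted threshold as reported, where 1833 had an unadjusted p under 0.05. An intensity trend with a robust prior called 8 genes and leaving out muscles called 0 to 14, the 14 without spermine oxidase replicate 2; none was a member. With the replicate block, limma called 266 genes (1.6%) and 2 of the 8 members, Smox (1.16 ± 0.15, adjusted p = 0.041) and Amd2 (0.78 ± 0.05, adjusted p = 0.0172), while Sat1 had an adjusted p = 0.116. Deviations from the group means correlated at 0.60, -0.14, 0.67 and 0.60 for numbers 1 to 4, so number 2 did not show pairing, and spermine oxidase muscle 2 correlated best with control muscle 3 (0.37). These values do not settle whether equal numbers mark 1 mouse. Without a label that pairs the muscles, equal numbers were not treated as pairs in the reported fit. Without detection values, no change can be read for probes at the floor, such as Sms.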

Other observations

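Besides Gamt, 2 genes of the pathway lists had groups without overlap, which makes 3 of 49 (6.12%, against 6.18% of all genes). They are Ahcyl2 and Bhmt2, named after their values were seen. Ahcyl2, which encodes a protein related to S-adenosylhomocysteine hydrolase, read 8.82 ± 0.03 in spermine oxidase muscles and 8.69 ± 0.04 in control muscles (SD, n = 4 each), a difference of 0.13 ± 0.03 (adjusted p = 0.179 with limma). Bhmt2, a methyltransferase that forms methionine, lay at the floor, at 8.25 ± 0.03 in spermine oxidase muscles and 8.19 ± 0.01 in control muscles, where no change can be read. Of the polyamine transporters, Atp13a2, which exports polyamines from lysosomes, had the smallest unadjusted p, at 9.25 ± 0.05 in spermine oxidase muscles and 9.44 ± 0.14 in control muscles, a difference of -0.19 ± 0.07 (adjusted p = 0.370 with limma) with overlap.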
